A study of Mus musculus with 14 samples.

Results

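Macrophages are the phagocytes of tissue: they take up dead cells, microbes and surfactant, and digest them in lysosomes. In the mouse lung they fall into alveolar macrophages, which mature in the airspace after birth under the growth factor GM-CSF and the transcription factor PPAR-gamma, and interstitial macrophages, which depend on CSF1 and make complement C1q. Resident macrophages and monocytes share the transcription factor PU.1, the product of Spi1. The genes described here are 39 genes of macrophage identity and of phagocytosis, named as resident and alveolar macrophage genes by a rule that uses no measured value, though with earlier results of these data known. Of them, 38 were measured, among 21212 probe sets. Ly6c2, a surface protein of classical monocytes, had no probe set. The gene named Siglec5 in the list was matched through its older symbol to the mouse gene Siglecf, the sialic acid receptor of alveolar macrophages and eosinophils.

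Whole lungs of C57BL/6J mice at postnatal day 6 were compared in 4 groups: 4 Atxn1L -/- lungs (the Atxn1l knockout) with 4 wild-type (WT) controls, and 3 Atxn1 -/- lungs (the Atxn1 knockout) with 3 WT controls. Both alleles came from intercrosses of heterozygotes, so the gene was missing from the whole animal and not from macrophages alone, and no lung had another allele or a treatment per the labels. Both encode partners of Capicua, a transcriptional repressor. Each sample was total RNA of frozen lung on 1 Affymetrix mouse Gene ST version 1 array, and the values are log2 RMA levels, 1 per Entrez gene, which have no true zero. In whole lung, fewer macrophages and less of a transcript per macrophage cannot be told apart. The sets of arrays were normalized separately, so levels are compared only within a set, and levels of different probe sets are not compared with each other.

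The mean log2 level of the alveolar type 2 cell markers was 12.90 to 12.99 on the 8 arrays of the Atxn1l set. On the 6 of the Atxn1 set it was 13.21 to 13.33. With no other tissue beside them, these levels describe the arrays and do not check the labelled tissue. In the Atxn1l knockout the targeted gene was lower by a log2 change of -2.58 (SE 0.09, limma adjusted p = 1.18e-06). Atxn1 differed by 0.01 (SE 0.07, limma adjusted p = 1.0) in its own knockout, and whether its probe set covers the deleted part is not given, so it checks nothing there. Xist, which is transcribed from the inactive X chromosome, was at 13.09 to 13.29 on 5 arrays of the Atxn1l set and at 6.32 to 7.04 on knockout replicate 1 and wild type replicates 1 and 2. In the Atxn1 set it was at 12.97 to 13.07 on knockout replicates 2 and 3 and wild type replicate 3, and at 6.83 to 6.94 on the other 3 arrays. Arrays that stood apart for the macrophage genes are Atxn1l knockout replicate 1, which held the highest level of its 8 arrays for 31 of the 38 genes (20.2% of all probe sets were highest there), and Atxn1 wild type replicate 3, the highest of 6 for 18 of 38 (12.0% of all). Both also had the highest neutrophil marker mean of their set: 10.39 against 8.41 to 9.28 on the other 7 arrays, and 10.84 against 9.22 to 9.63 on the other 5. Results are given with and without these arrays. Over all probe sets, Atxn1 wild type replicate 1 also stood apart, as the highest of 6 for 41.1% of them.

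In Atxn1l knockout lungs macrophage genes were on balance above their wild types, the C1q subunits, the CSF1 receptor, F4/80 and CD11b among them, while no single gene passed the test over all probe sets. Of the 38 genes, 0 passed (limma adjusted p under 0.05, smallest 0.192), where 9 of all probe sets did (0.0424%). At an unadjusted p under 0.05, 21 of the 38 were higher (4.54% of all probe sets) and 1, Ear2, was lower (3.95% of all). The log2 change was above 0 for 33 of 38 (51.3% of all), with a median of 0.35, against 0.0 over all probe sets. For 14 genes every knockout array lay above every wild type (2.76% of all), and for none did every knockout lie below (2.56% of all). Those 14 were C1qa, C1qb, C1qc, Csf1r, Cd68, Adgre1, Fcgr1, Itgam, Apoe, Ctsk, Csf2ra, Csf2rb, Cx3cr1 and Spi1.

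Knockout replicate 1 carried part of these sizes. The median excess of the 38 genes over the wild-type mean was 0.65 on that array, and 0.14, 0.22 and 0.26 on knockout replicates 2, 3 and 4. Without it the median change was 0.22, 31 of 38 genes were above 0 (51.0% of all probe sets), and 19 were higher at an unadjusted p under 0.05 (3.62% of all). The same 14 genes had all knockouts above all wild types (3.66% of all). Mertk, Cd163 and Ear2 then had all 3 remaining knockouts below all wild types (4.87% of all), and were lower at an unadjusted p under 0.05 (4.32% of all). Without that array C1qb and C1qc passed the test (limma adjusted p = 0.00299 and 0.0096), as did 0.0754% of all probe sets, and without knockout replicate 2 it was Csf1r that passed (0.57, limma adjusted p = 0.0291), as did 0.0896% of all. On the 5 arrays of high Xist level, a comparison chosen after seeing the data, the median was 0.23, with 26 of 38 higher at an unadjusted p under 0.05 (4.08% of all) and 0 passing (0.00943% of all).

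**Figure D1:**
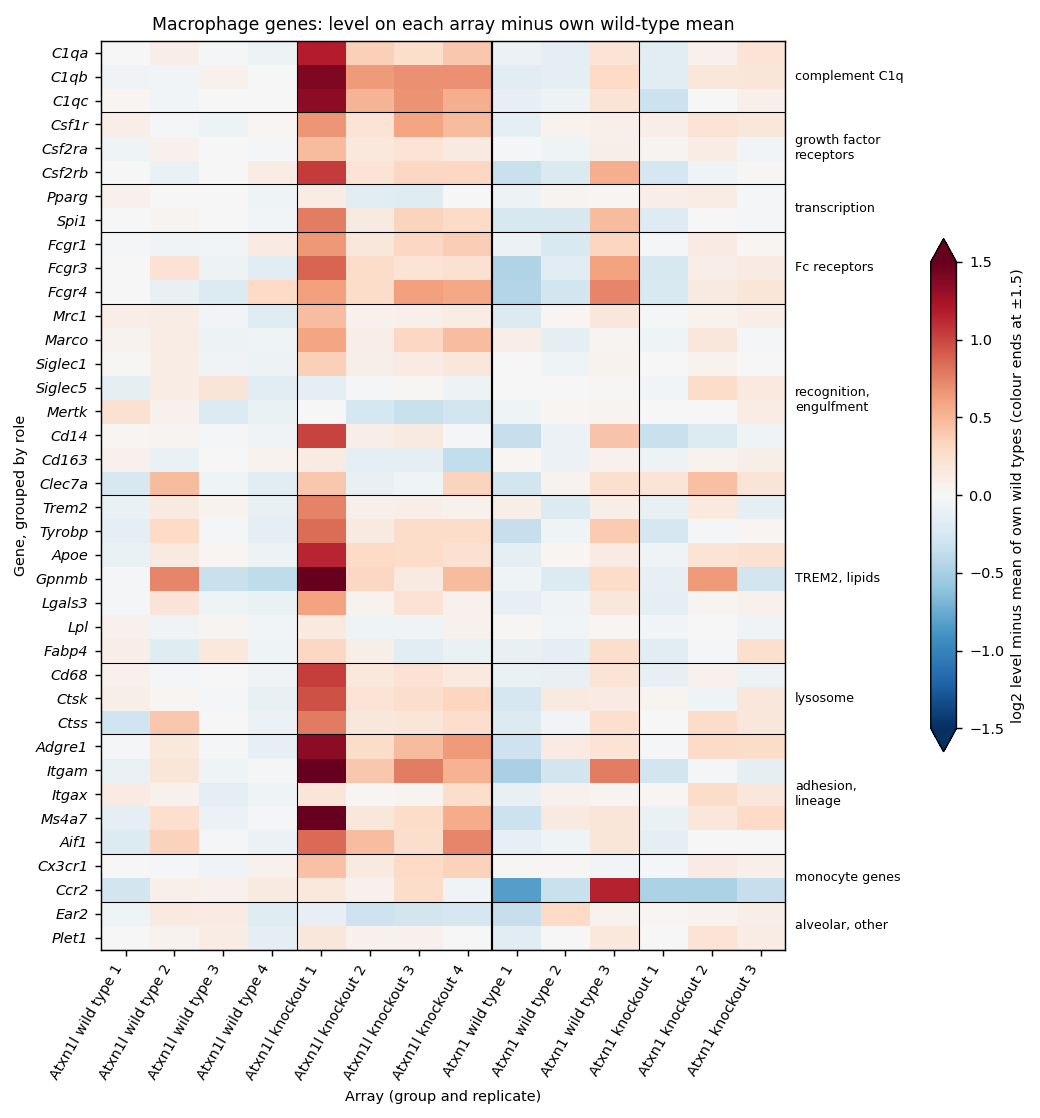
Colour gives the log2 level of each of the 38 measured macrophage genes (vertical axis, grouped by role) on each of the 14 arrays (horizontal axis), minus the mean of that set's wild types. Colour ends at 1.5 in either direction. Atxn1l knockout replicate 1 is the darkest column, and the other 3 Atxn1l knockouts are paler above their wild types in most role groups.

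The 3 genes of complement C1q, the opsonin that macrophages secrete and that marks dying cells for uptake, had every Atxn1l knockout above every wild type. C1qb, its B chain, was at 10.84, 10.08, 10.12 and 10.13 on Atxn1l knockout replicates 1 to 4 and at 9.39, 9.40, 9.51 and 9.44 on the wild types. Every knockout exceeded every wild type, the wild types lay within a narrow band, and replicate 1 was well above the other knockouts. The means were 10.29 ± 0.37 and 9.44 ± 0.06 (SD, n = 4 each), a log2 change of 0.85 (SE 0.15, 1.81-fold, limma adjusted p = 0.192), and 0.67 (SE 0.05) without replicate 1. C1qc, the C chain, was at 10.37, 9.54, 9.70 and 9.57 on the knockouts and at 9.06, 8.99, 9.03 and 9.02 on the wild types. The groups did not overlap, and the pattern over arrays was that of C1qb. Its change was 0.77 (SE 0.16, 1.71-fold, limma adjusted p = 0.249), and 0.58 (SE 0.06) without replicate 1. C1qa, the A chain, was at 9.53, 8.71, 8.61 and 8.75 against 8.35, 8.45, 8.32 and 8.27. Here too all knockouts were above all wild types, by 0.55 (SE 0.17, limma adjusted p = 0.42), and by 0.34 (SE 0.06, limma adjusted p = 0.204) without replicate 1.

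**Figure D2:**
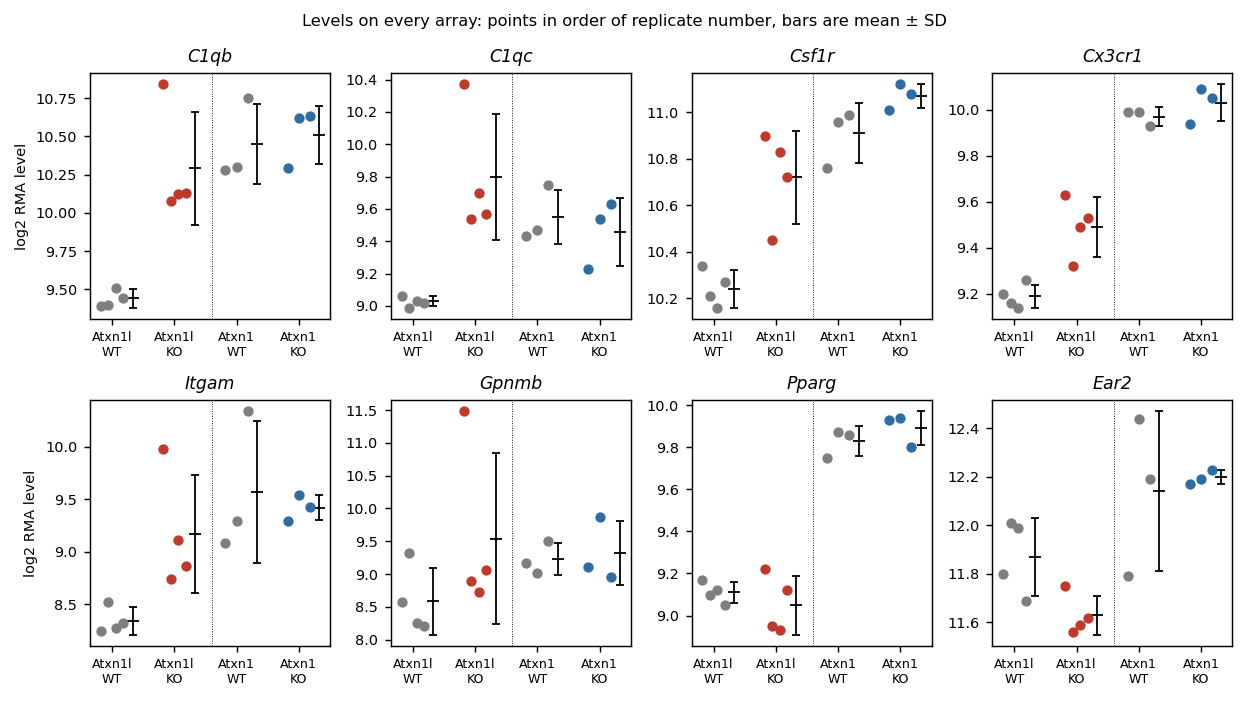
Log2 RMA level (vertical axis) of 8 macrophage genes on every array, as points in order of replicate number within each group (horizontal axis), with mean ± SD beside them. For C1qb, C1qc, Csf1r, Cx3cr1 and Itgam the Atxn1l knockouts do not overlap their wild types, while for Pparg and Ear2 they do, and Gpnmb rests on 1 knockout array at 11.48.

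The C1q genes are neighbours on mouse chromosome 4, with C1qc between C1qa and C1qb and no other protein-coding gene among them. The 250 bases before the start of C1qb and C1qc, and of the Fc receptor gene Fcgr4 on chromosome 1 for comparison, are shown. They were picked because these genes had among the lowest p of the 38 and each holds the ETS core GAGGAA. Those letters are at the centre of the PU.1 binding motif. Their presence in these picked promoters is therefore no result. Promoters of 28 of the 38 genes were searched, and Csf1r and Cx3cr1, also of low p, were not among those with a match. No promoter sequence was available for C1qa. The sequences are RefSeq's for GRCm38.p6, 5′ to 3′ on the strand of the gene. They lie at chr4:136886201-136886450 (minus strand), chr4:136892915-136893164 (minus strand) and chr1:171018676-171018925 (plus strand). C1qc as annotated reaches to 136892936, so its window is counted from a start inside the gene and overlaps the gene's first bases. Capitals mark GAGGAA or, where the other strand carries it, its reverse complement TTCCTC.
C1qb: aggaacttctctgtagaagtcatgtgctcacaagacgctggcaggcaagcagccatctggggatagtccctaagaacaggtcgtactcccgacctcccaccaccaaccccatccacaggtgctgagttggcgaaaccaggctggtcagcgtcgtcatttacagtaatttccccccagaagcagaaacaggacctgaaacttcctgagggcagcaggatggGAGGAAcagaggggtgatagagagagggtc
C1qc: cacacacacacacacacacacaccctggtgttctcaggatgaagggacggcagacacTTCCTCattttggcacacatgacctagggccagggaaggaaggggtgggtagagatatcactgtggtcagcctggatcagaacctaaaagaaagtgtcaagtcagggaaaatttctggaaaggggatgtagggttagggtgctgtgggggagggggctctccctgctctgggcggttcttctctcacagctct
Fcgr4: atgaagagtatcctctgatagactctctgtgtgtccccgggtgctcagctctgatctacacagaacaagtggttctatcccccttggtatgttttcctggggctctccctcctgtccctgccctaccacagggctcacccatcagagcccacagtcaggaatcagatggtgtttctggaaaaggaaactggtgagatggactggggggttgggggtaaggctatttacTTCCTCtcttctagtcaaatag
The match begins 30 bases before the start in C1qb, 193 in C1qc and 22 in Fcgr4. In windows from 250 bases before to 50 after the start, GAGGAA stood on either strand in 22 of 35 promoters of 28 of the macrophage genes (62.9%) and in 28.3% of all 32851 promoters. The longer form GAGGAAGT, which contains it, stood in 3 of the 35 (8.57%), those of C1qc, Ctss and Fcgr4, against 3.2% of all. Neither of the Capicua octamers searched, TGAATGAA and TGAATGGA on either strand, occurred in the 35, against 1.3% and 1.21% of all. At such low shares 35 promoters are too few to expect a match, so nothing is read from the absence. A match of letters is a description and not a bound site.

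The receptors of the macrophage growth factors were all above their wild types in the Atxn1l knockout, with a group median of 0.47 over 3 genes and 0.27 without replicate 1. Csf1r, the receptor of CSF1 and IL-34, was at 10.90, 10.45, 10.83 and 10.72 against 10.34, 10.21, 10.16 and 10.27. No knockout overlapped the wild types, and replicate 2, not replicate 1, was the array apart from the others. Its change was 0.48 (SE 0.09, 1.40-fold, limma adjusted p = 0.207), and 0.42 (SE 0.09) without replicate 1. Csf2rb, the shared signalling chain of the GM-CSF, IL-3 and IL-5 receptors, was higher by 0.47 (SE 0.16, limma adjusted p = 0.483), and by 0.27 without replicate 1. Csf2ra, the chain that binds GM-CSF itself, was higher by 0.25 (SE 0.08, limma adjusted p = 0.42), and by 0.17 without replicate 1.

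Among the transcription factors, Spi1 was at 10.28, 9.65, 9.84 and 9.80 against 9.51, 9.55, 9.50 and 9.47. All knockouts lay above the wild types, whose SD was 0.03, by 0.39 (SE 0.11, limma adjusted p = 0.403) and by 0.26 without replicate 1. Pparg, which alveolar macrophages need to mature and which other lung cells also express, was at 9.22, 8.95, 8.93 and 9.12 against 9.17, 9.10, 9.12 and 9.05. Its groups overlapped, with a change of -0.06 (SE 0.07, limma adjusted p = 0.89).

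The 3 activating Fc receptors, which bind antibody-coated particles, were higher by a median of 0.40, and by 0.29 without replicate 1. Fcgr4, a receptor of IgG2 antibodies in the mouse, was at 8.78, 8.44, 8.79 and 8.75 against 8.17, 8.06, 7.97 and 8.47. Knockout replicate 2 lay below wild type replicate 4, the single overlap between the groups, and the change was 0.52 (SE 0.11, 1.43-fold, limma adjusted p = 0.251). Fcgr1, the high-affinity receptor CD64, was at 8.47, 7.99, 8.13 and 8.19 against 7.79, 7.77, 7.78 and 7.94. These groups did not overlap, and the change was 0.38 (SE 0.09, limma adjusted p = 0.327). Fcgr3, which lies beside Fcgr4 on chromosome 1, was higher by 0.40 (SE 0.14), and by 0.24 without replicate 1.

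Of the 8 receptors of recognition and engulfment, 5 were above 0 (51.3% of all probe sets). None had all knockouts above all wild types (2.76% of all). These 8 genes are too few to set against those shares. Their median was 0.16, or 0.06 without replicate 1. Marco, a scavenger receptor of alveolar macrophages, was at 7.83, 7.34, 7.55 and 7.70 against 7.29, 7.35, 7.16 and 7.18. Only knockout replicate 2 reached into the wild-type range, and the change was 0.36 (SE 0.10, limma adjusted p = 0.366). Siglec1, the sialoadhesin CD169, was higher by 0.19 (SE 0.07, limma adjusted p = 0.523), and the mannose receptor Mrc1 by 0.18 (SE 0.10, limma adjusted p = 0.667). Cd14, the coreceptor for lipopolysaccharide, stood at 8.66 on replicate 1 and at 7.63 to 7.78 on the other knockouts, against 7.60 to 7.69 on the wild types, so that its change of 0.31 (SE 0.19) became 0.07 without that array. Clec7a, the beta-glucan receptor Dectin-1, differed by 0.14 (SE 0.17), with groups that overlapped.

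The other 3 of these receptors lay on the low side. Mertk, a receptor for apoptotic cells through GAS6 and protein S, was at 10.34, 10.09, 10.02 and 10.08 against 10.58, 10.42, 10.14 and 10.25. Knockout replicates 2, 3 and 4 were below every wild type, and replicate 1 was not, with a change of -0.21 (SE 0.10, limma adjusted p = 0.61) and of -0.28 without replicate 1 (limma adjusted p = 0.507). Cd163, the receptor for haemoglobin bound to haptoglobin, was at 6.72, 6.46, 6.46 and 6.23 against 6.66, 6.50, 6.60 and 6.65. Replicate 1 was again the knockout above the rest, and the change was -0.13 (SE 0.09, limma adjusted p = 0.754), or -0.22 without it. Siglec5 differed by -0.05 (SE 0.08, limma adjusted p = 0.917). That symbol is also a synonym of Siglece, another sialic acid receptor, whose probe set was higher by 0.45 (SE 0.14, limma adjusted p = 0.419).

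TREM2, which senses lipids, its signalling adaptor TYROBP and genes of lipid handling made a group of 7, with a median of 0.25 that became 0.11 without replicate 1. Apoe, the lipoprotein that macrophages secrete, was at 12.54, 11.70, 11.68 and 11.63 against 11.30, 11.53, 11.43 and 11.32. Its groups did not overlap, and the change was 0.49 (SE 0.18, limma adjusted p = 0.514), or 0.27 without replicate 1. Gpnmb, a glycoprotein of lipid-laden macrophages, was at 11.48, 8.90, 8.73 and 9.06 against 8.57, 9.32, 8.26 and 8.21. A single array set its value: the change of 0.95 (SE 0.55, limma adjusted p = 0.684), the largest of the 38, was 0.30 without replicate 1. Tyrobp was higher by 0.38 (SE 0.15), Trem2 by 0.25 (SE 0.14) and Lgals3, the lectin galectin-3, by 0.23 (SE 0.12). Without replicate 1 these were 0.23, 0.09 and 0.11. Lpl, which hydrolyses triglycerides, and Fabp4, a fatty acid carrier, both also expressed by other lung cells, differed by 0.02 (SE 0.06) and 0.03 (SE 0.11), and both were below 0 without replicate 1.

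The lysosomal genes were above their wild types by a median of 0.39, and by 0.20 without replicate 1. Cd68, a lysosomal membrane glycoprotein, was higher by 0.39 (SE 0.17) and Ctsk, a collagen-degrading cathepsin, by 0.44 (SE 0.15), with no overlap of groups in either. Ctss, a cathepsin of antigen processing that neighbours Ctsk on chromosome 3, was higher by 0.35 (SE 0.17), and its groups overlapped through wild type replicate 2, at 10.77. Without replicate 1 the changes were 0.18, 0.26 and 0.20.

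Surface proteins of adhesion and lineage had a median of 0.68 over 5 genes, and of 0.46 without replicate 1. Itgam, the CD11b chain of complement receptor 3, which neutrophils and monocytes also carry, was at 9.98, 8.74, 9.11 and 8.86 against 8.24, 8.52, 8.27 and 8.32. All knockouts were above all wild types, with a change of 0.83 (SE 0.23, 1.78-fold, limma adjusted p = 0.366), and of 0.56 (SE 0.10, limma adjusted p = 0.178) without replicate 1. Its neighbour Itgax, the CD11c chain of alveolar macrophages and dendritic cells, was at 8.81, 8.65, 8.67 and 8.89 against 8.75, 8.70, 8.49 and 8.57. Those groups overlapped, and the change was 0.13 (SE 0.08, limma adjusted p = 0.695). Adgre1, the F4/80 antigen, was at 10.41, 9.35, 9.54 and 9.71 against 9.05, 9.23, 9.05 and 8.95, without overlap. Its change was 0.68 (SE 0.19, limma adjusted p = 0.366), or 0.46 without replicate 1. Aif1, the actin-bundling protein IBA1, was at 7.64, 7.25, 7.05 and 7.52 against 6.58, 7.13, 6.76 and 6.70. Wild type replicate 2 lay above knockout replicate 3, and the change was 0.57 (SE 0.15, limma adjusted p = 0.333). Ms4a7, a membrane protein of interstitial macrophages, was higher by 0.70 (SE 0.30, limma adjusted p = 0.569), and by 0.34 without replicate 1, where it stood at 9.59 and elsewhere at 8.36 or less.

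The chemokine receptor genes of monocytes differed in size. Cx3cr1, the fractalkine receptor of patrolling monocytes and interstitial macrophages, was at 9.63, 9.32, 9.49 and 9.53 against 9.20, 9.16, 9.14 and 9.26. No array overlapped, and the change was 0.30 (SE 0.07, limma adjusted p = 0.254), or 0.26 without replicate 1. Ccr2, which draws classical monocytes out of the marrow, was at 8.27, 8.18, 8.39 and 8.06 against 7.83, 8.19, 8.17 and 8.25. Its groups overlapped, with a change of 0.11 (SE 0.10, limma adjusted p = 0.818).

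Ear2 and Plet1 are alveolar macrophage genes of other function. Ear2, a ribonuclease of the eosinophil-associated family, was at 11.75, 11.56, 11.59 and 11.62 against 11.80, 12.01, 11.99 and 11.69. Only knockout replicate 1 exceeded a wild type, and the change was -0.24 (SE 0.08, 1.18-fold lower, limma adjusted p = 0.452). Near-identical members of that family can share probes, and they differed by -0.34 for Ear1, by -0.26 for Ear10, by 0.03 for Ear6 and by 0.01 for Ear14. Plet1, a surface protein of alveolar macrophages and epithelium, was at 11.67, 11.56, 11.56 and 11.49 against 11.51, 11.55, 11.61 and 11.35, with groups that overlapped and a change of 0.07 (SE 0.07, limma adjusted p = 0.848).

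**Figure D3:**
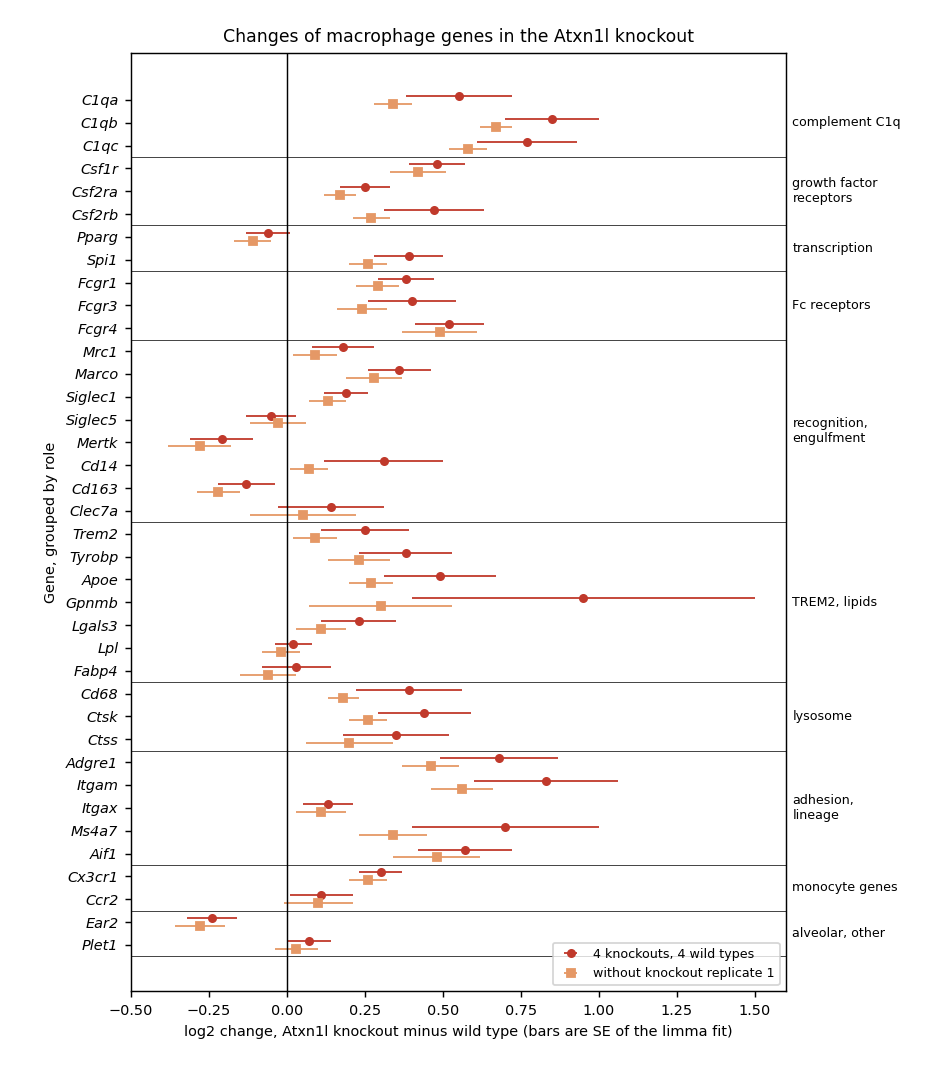
Log2 change of each macrophage gene (vertical axis, grouped by role) in the Atxn1l knockout minus wild type (horizontal axis), with bars for the SE of the limma fit. Circles use 4 knockouts and 4 wild types, squares leave out knockout replicate 1. Gpnmb moves from 0.95 to 0.30, while C1qb moves from 0.85 to 0.67 with a narrower bar.

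Set side by side, the genes known from interstitial macrophages had larger values than those known from alveolar macrophages. That difference was not tested because both lists were chosen with results known. Neither list is exclusive to its cell type. Pparg, Fabp4 and Plet1 are also expressed by other lung cells, and Mrc1 and Mertk also by alveolar macrophages. The 10 interstitial genes (C1qa, C1qb, C1qc, Csf1r, Mrc1, Cd163, Mertk, Cx3cr1, Ms4a7 and Apoe) had a median change of 0.49, with 8 of 10 above 0 (51.3% of all probe sets) and 6 with every knockout above every wild type (2.76% of all). Without replicate 1 their median was 0.31. The 9 alveolar genes (Siglec5, Marco, Itgax, Pparg, Csf2ra, Csf2rb, Fabp4, Ear2 and Plet1) had a median of 0.07, or 0.03 without replicate 1, with 6 of 9 above 0 and 2, Csf2ra and Csf2rb, without overlap. On single arrays, the interstitial mean was 10.06 on knockout replicate 1 and 9.41 to 9.48 on the other knockouts, against 9.17 to 9.25 on the wild types, with no overlap. The alveolar mean was 9.70 on replicate 1 and 9.42 to 9.49 on the other knockouts, against 9.33 to 9.45, so that these groups overlapped. The 13 further alveolar genes had a median of 0.01. They held Chil3, a chitinase-like protein, which rose by 1.46 (SE 0.16, limma adjusted p = 0.021), and by 1.30 without replicate 1, and Ear1 at -0.34. The 10 further interstitial genes had a median of 0.12. At an unadjusted p under 0.05, 2 were higher (4.54% of all probe sets), Pf4 (0.44) and F13a1 (0.39), which platelets and monocytes also make.

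Markers of other blood cells were read on the same arrays. The 4 genes of all leukocytes all had a positive change, with a median of 0.32 and a mean level of 10.67 to 11.06 on the knockouts against 10.45 to 10.65 on the wild types. The 11 monocyte markers had a median of 0.13, and their means overlapped, at 10.43 to 10.73 against 10.28 to 10.44. At an unadjusted p under 0.05, 3 of the 11 were higher (4.54% of all probe sets) and 0 lower (3.95% of all). The 3 were Ifitm6 (0.95), Plac8 (0.61) and Vcan (0.14). All 13 neutrophil markers had a change above 0 (51.3% of all), and 6 were higher at an unadjusted p under 0.05 (4.54% of all). Their median was 0.75, or 0.38 without replicate 1, and their means were 8.93 to 10.39 against 8.41 to 9.06 on the wild types. Their part in the macrophage values was not tested, and Itgam, Fcgr3, Fcgr4, Tyrobp, Csf2rb and Spi1 are known in neutrophils too. The 4 platelet markers had a positive change throughout, with a median of 0.24, or 0.09 without replicate 1. Their mean on that array was 9.77, against 8.92 to 9.20 on the other 7 arrays. Of 9 T and NK cell markers, 3 were higher at an unadjusted p under 0.05 (4.54% of all probe sets), with a list median of 0.06 and with the granzyme gene Gzma at 0.71 (limma adjusted p = 0.482). The part of these cells was not tested either. Medians were 0.10 for 6 markers of mast cells and basophils, 0.05 for 4 of B cells and -0.02 for 6 of erythroid cells. Eosinophil markers had a median of -0.02 over 4 genes and dendritic cell markers of 0.06 over 8, in which Cd209a, a lectin of monocyte-derived dendritic cells, fell by 0.58 on the log2 scale (limma adjusted p = 0.0253).

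**Figure D4:**
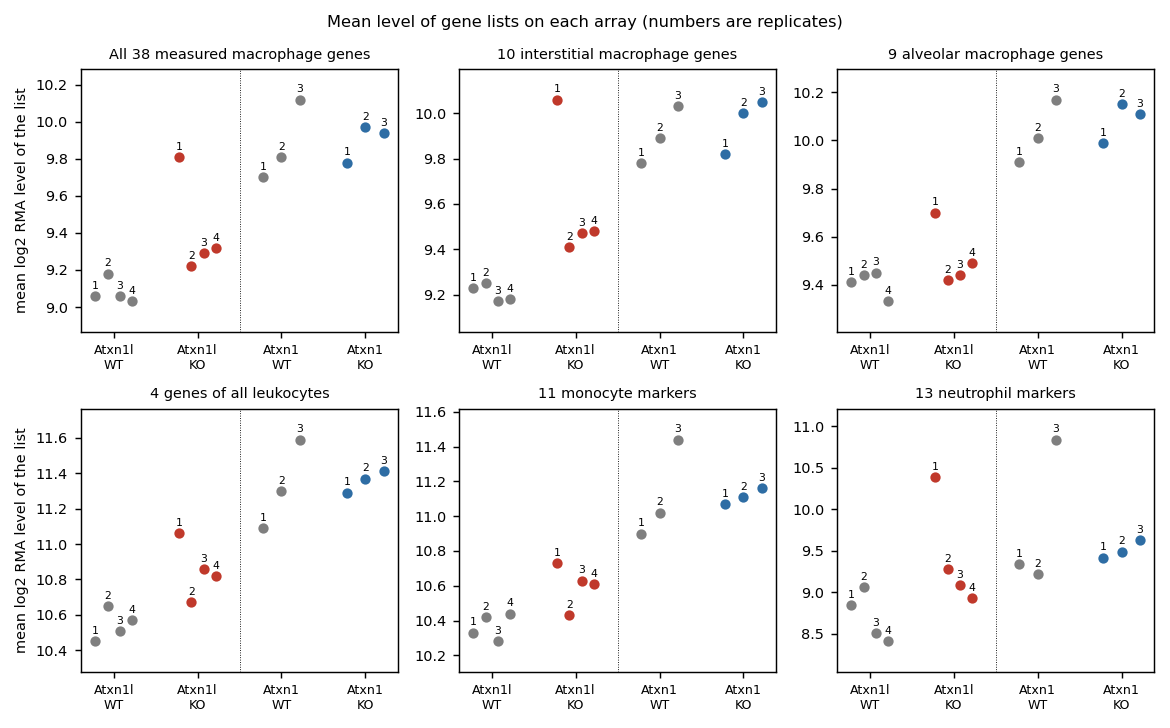
Mean log2 RMA level (vertical axis) of 6 gene lists on each array, by group (horizontal axis), with the replicate number at each point. The interstitial list separates Atxn1l knockouts from their wild types and the alveolar list does not, and knockout replicate 1 and Atxn1 wild type replicate 3 are the highest arrays of their sets in the neutrophil list.

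Beyond the 38 genes, genes of uptake and digestion had smaller medians in the Atxn1l knockout. Of 30 genes of phagocytosis and efferocytosis machinery, 11 were higher and 1 lower at an unadjusted p under 0.05 (4.54% and 3.95% of all probe sets), with a median of 0.11. The same share of 4.54% stands beside the counts of higher genes with all arrays in the lists that follow. The scavenger receptor gene Msr1 was the 1 that passed, with 0.69 (SE 0.08, limma adjusted p = 0.0197). Dock2, which activates the GTPase Rac in leukocytes, had 0.41, and Fcer1g, the signalling chain of Fc receptors, 0.55 (limma adjusted p = 0.216 and 0.228). Among 24 lysosomal genes the median was 0.11, and 22 values exceeded 0 (51.3% of all). At an unadjusted p under 0.05, 6 were higher, among them Tcirg1 of the proton pump (0.29) and Psap, which activates lipid hydrolases (0.24). Without replicate 1, 18 were above 0 (51.0% of all) and 3 were higher at that level (3.62% of all). For 16 genes of complement and its receptors the median was 0.03, with 9 of 16 above 0 (51.3% of all). At an unadjusted p under 0.05, 5 were higher. They included Itgb2, the partner chain of Itgam (0.37), C5ar1 (0.50) and C3ar1, the anaphylatoxin receptor for C3a (0.90, limma adjusted p = 0.42). Without replicate 1 C3ar1 passed (0.56, limma adjusted p = 0.0425), as did 0.0754% of all. The list's median was then -0.01, 8 of 16 were above 0 (51.0% of all) and 2 were lower at an unadjusted p under 0.05 (4.32% of all). Of 17 growth factors and transcription factors of macrophages, 7 were higher at that level, with a median of 0.11, Irf8 at 0.28 and Tgfb1 at 0.23 (limma adjusted p = 0.192 and 0.31). Of 10 genes of cholesterol efflux and lipid storage, 1 was, Lpcat2, an acyltransferase that makes platelet-activating factor (0.55, limma adjusted p = 0.34), and the median was 0.11. One gene of 10 is too few to set against the 4.54% of all probe sets.

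In Atxn1 knockout lungs the macrophage genes lay close to their wild types. Of the 38, 0 passed, as did 0 of the 21212 probe sets (0.0%), and 0 were higher or lower at an unadjusted p under 0.05 (0.75% and 0.467% of all). The log2 change was above 0 for 25 of 38 (47.3% of all), with a median of 0.03. Csf1r was the 1 gene with every knockout above every wild type (2.85% of all), and for none did every knockout lie below (1.9% of all). Csf1r was at 11.01, 11.12 and 11.08 on the knockouts and at 10.76, 10.96 and 10.99 on the wild types. The gap between the groups was narrow, and the change was 0.17 (SE 0.07, limma adjusted p = 1.0). Clec7a was at 10.12, 10.37 and 10.11 against 9.64, 9.97 and 10.16, a change of 0.28 (SE 0.14), in which wild type replicate 3 reached above 2 of the knockouts. Itgax was at 9.29, 9.54 and 9.43 against 9.15, 9.33 and 9.30, a change of 0.16 (SE 0.08), with knockout replicate 1 inside the wild-type range. Its knockout levels equal those of Itgam to the digits shown and differ beyond them. Siglec5 was at 9.47, 9.78 and 9.66 against 9.50, 9.50 and 9.53, a change of 0.13 (SE 0.08), with knockout replicate 1 below the wild types and the others above.

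The C1q genes, led by C1qb in the Atxn1l knockout, overlapped their wild types here. C1qb was at 10.29, 10.62 and 10.63 against 10.28, 10.30 and 10.75, a change of 0.07 (SE 0.15). C1qc was at 9.23, 9.54 and 9.63 against 9.43, 9.47 and 9.75, a change of -0.09 (SE 0.13). C1qa was at 9.18, 9.41 and 9.56 against 9.26, 9.22 and 9.56, a change of 0.04 (SE 0.12). In C1qb and C1qc wild type replicate 3 exceeded every knockout, and in C1qa it was level with the highest of them.

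Wild type replicate 3 moved many of these values. Ccr2 was at 8.61, 8.61 and 8.73 on the knockouts and at 8.25, 8.75 and 10.24 on the wild types. That array alone gave its change of -0.43 (SE 0.45), which was 0.15 without it. Itgam was at 9.29, 9.54 and 9.43 against 9.08, 9.29 and 10.34, a change of -0.15 (SE 0.30) that was 0.24 without it. Without wild type replicate 3, 37 of the 38 genes were above 0 (44.6% of all probe sets) with a median of 0.14. Then 5 were higher at an unadjusted p under 0.05 (0.806% of all): Csf1r (0.21), Fcgr1 (0.21), Fcgr4 (0.39), Ctss (0.28) and Clec7a (0.40), and 7 had all knockouts above both remaining wild types (5.7% of all). Wild type replicate 1 held the lowest level of 22 of the 38 genes. It held the highest level for 41.1% of all probe sets, and the share lowest there was not counted. Without that array the median of the 38 was -0.01 and 16 were above 0 (57.9% of all). The 13 neutrophil markers had a median of -0.23 with wild type replicate 3 and of 0.32 without it. The pathway lists had medians between 0.0 and 0.02 in this knockout, with at most 1 gene in either direction at an unadjusted p under 0.05 in any of the 5.

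The effects of both knockouts were compared in 1 fit of all 14 arrays. For no macrophage gene did the difference between them pass (0 of 38, limma adjusted p = 1.0 for each of them, against 0.00943% of all probe sets). At an unadjusted p under 0.05 the effect of the Atxn1l knockout was the higher one for 7 of 38 genes (1.74% of all) and the lower one for 0 (1.5% of all). Those 7 were C1qb, C1qc, Csf1r, Marco, Itgam, Cx3cr1 and Aif1. Over all 38 the difference was positive for 30 (53.5% of all), with a median of 0.33. For C1qc the difference of log2 changes was 0.86 (SE 0.23), and for C1qb it was 0.78 (SE 0.24). Aif1 had 0.61 (SE 0.20), Csf1r 0.32 (SE 0.13) and Cx3cr1, of the fractalkine receptor, 0.25 (SE 0.09). Without Atxn1l knockout replicate 1 the count was 6 higher (1.36% of all), with C1qa in place of Csf1r and Marco, and 2 lower, Mertk and the dim Cd163 (1.69% of all). Without Atxn1 wild type replicate 3 it was 4, C1qb, C1qc, Cx3cr1 and Aif1 (1.43% of all).

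**Figure D5:**
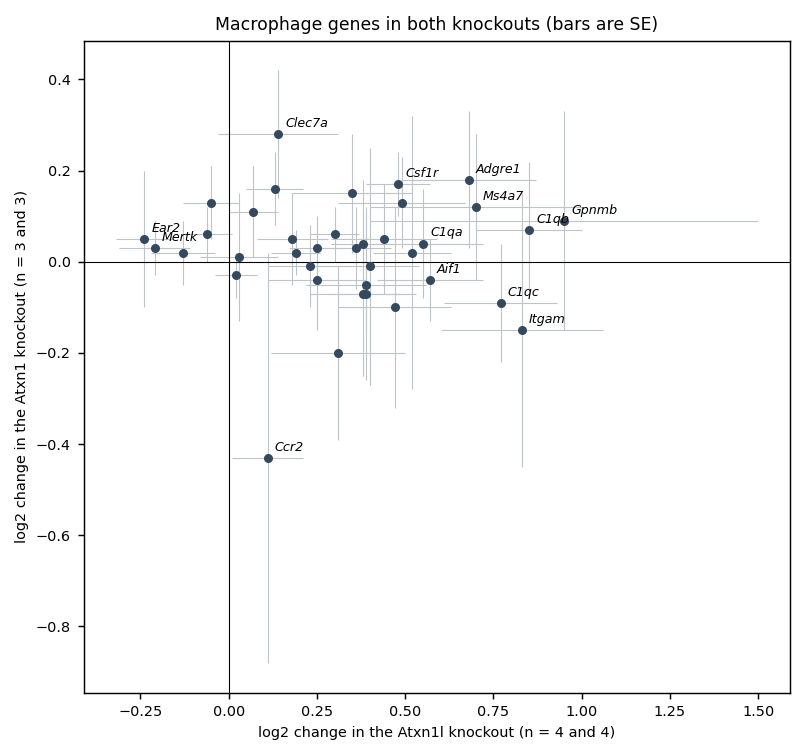
Log2 change of each of the 38 macrophage genes in the Atxn1l knockout (horizontal axis) and in the Atxn1 knockout (vertical axis), each against its own wild types, with bars for the SE. Most points lie right of 0 and near 0 on the vertical axis, with C1qb at 0.85 and 0.07 and Ccr2, at -0.43 on the vertical axis, the lowest.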

How the data were processed

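Per the labels, total RNA of frozen lungs was labelled from 100 ng per array and hybridized to 14 arrays. The authors deposited log2 levels made with RMA, per the submitters' processing notes, separately for each knockout with its controls, per the series' design text. The probe set definition and the genome build behind it are not given in the sources used here. Probe sets were named through the platform's gene table (18786 of 21212 had 1 symbol, 6 several and 2420 none) and, for 3 of the 38 macrophage genes, through Entrez numbers or older symbols.

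Knockouts were tested against the wild types of their own set with limma 3.58.1 (R 4.3.3; functions lmFit and eBayes with the default prior, two-sided, without covariates) over all 21212 probe sets, with Benjamini-Hochberg adjustment over all of them and a threshold of 0.05. One fit of 4 group means gave the test of whether both effects differed. Tables and figures were made with pandas 2.3.3 and matplotlib 3.10.9. SE is that of the fit and SD the spread between arrays, whose number limits the precision. The labels do not say that replicates were separate litters, so p-values measure the spread between these samples. The macrophage genes, the role groups and the other lists were chosen with earlier results of these data known, so lists are described by counts and medians and got no test. Values on every array were given for genes of smallest p and for those at the ends of the range of levels. Genes whose value rested on 1 array were added after seeing the values. C1qa, Adgre1, Spi1, Pparg and Mertk were among further genes shown outside these rules.

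On simulated data with 200 changed probe sets, the Atxn1l comparison recovered 80 of 100 changes of 0.5 and 99 of 100 of 1 on the log2 scale. The Atxn1 comparison recovered 70 and 92 of 100, and each made 8 false calls among 21012 unchanged probe sets. The noise was normal, the changed probe sets were drawn at random, and 200 changes ease the adjusted threshold, where 9 probe sets passed in the real Atxn1l fit. These shares are therefore not the power for the macrophage genes: C1qb, at 0.85 (SE 0.15), did not pass. Alternatives were other scalings, priors, filters, array weights, an Xist covariate, the replicate number as a block and leaving out each array. Per the labels, wild-type and knockout lungs were taken in pairs, but which arrays belong to 1 pair is not given. Same-numbered arrays correlated by over 0.1 in only 2 of 4 pairs of the Atxn1l set and 1 of 3 of the Atxn1 set. Knockouts and wild types of different number ran from -0.241 to 0.253 in the Atxn1l set and from -0.372 to 0.367 in the Atxn1 set. This cannot settle whether the number marks pairs. The number was not used as a pair in the fit reported, and the fit with it as a block is given below.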

Additional observations from a re-analysis of the deposited data

Results flagged for a closer look

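Of 76 groups of 4 arrays (38 genes in the Atxn1l knockouts and in their wild types), 15 held an array that stood apart. Its gap to the nearest other, divided by the range of the group, was above Dixon's critical value for 4 samples. That value is set for about 1 in 20 groups of independent values, and these genes share their arrays. The share of all probe sets past it was not counted, so no excess is read from the 15. In 13 of them the array was Atxn1l knockout replicate 1, as the highest: C1qa at 9.53, C1qb at 10.84, Cd68 at 10.88, Mrc1 at 10.14, Fcgr3 at 9.93, Cd14 at 8.66, Trem2 at 9.18, Apoe at 12.54, Gpnmb at 11.48, Ctsk at 9.42, Ctss at 11.15, Csf2ra at 10.58 and Csf2rb at 10.50. The remaining knockouts of these genes lay close together, between 10.08 and 10.13 for C1qb and between 8.73 and 9.06 for Gpnmb. The same array had the highest neutrophil marker mean of its set, at 10.39, and was the 1 knockout of low Xist level, at 7.04. The part of either in these levels was not tested. Fcgr4 was lowest on knockout replicate 2, at 8.44 against 8.75 to 8.79 on the other knockouts, and Fcgr1 was highest on wild type replicate 4, at 7.94 against 7.77 to 7.79 on the other wild types.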

How the results depend on the processing

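The number of macrophage genes passing in the Atxn1l knockout was 0 in the fit reported, 2 without knockout replicate 1 (C1qb at 0.67 and C1qc at 0.58) and 1 without knockout replicate 2 (Csf1r at 0.57). It ranged from 0 to 2 over the fits that left out 1 array and was 0 in the other fits run. The median of the 38 changes, 0.35, was 0.22 without knockout replicate 1, 0.42 without knockout replicate 2, and 0.23 on the arrays of high Xist level, which were chosen after seeing the data. With the replicate number as a block, 0 of the 38 passed in either knockout and the medians stayed at 0.35 and 0.03, while 2 probe sets in all passed in the Atxn1l knockout, against 9 without the block. Same-numbered arrays correlated in their deviations from group means at 0.088, 0.037, 0.227 and 0.376 in the Atxn1l set, and at 0.003, -0.417 and 0.421 in the Atxn1 set. In the Atxn1 knockout 0 of 38 passed in all fits run. The median, 0.03, was -0.09 with array weights, where the smallest limma adjusted p of the 38 was 0.138. In that fit 13 genes were lower at an unadjusted p under 0.05. The share of all probe sets lower there was not counted, so the 13 are not read as a result about these genes. Of 769 values of single genes under these alternatives, 23 changed sign, all of genes that did not pass; the cause was not tested. Over the fits that left out 1 array, the changes in the Atxn1l knockout ranged from -0.11 to 0.01 for Siglec5, from -0.06 to 0.1 for Fabp4 and from -0.02 to 0.05 for Lpl. Fabp4 also had -0.04 with array weights and -0.1 on the arrays of high Xist level, and Lpl -0.01 with median centring or array weights and -0.02 on the arrays of high Xist level. In the Atxn1 knockout the ranges over those fits were -0.05 to 0.14 for C1qa, -0.01 to 0.22 for C1qb, -0.17 to 0.03 for C1qc, -0.84 to 0.15 for Ccr2 and -0.39 to 0.24 for Itgam. With the Xist covariate C1qa had -0.07 and C1qb -0.06, and with array weights -0.14 and -0.2.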
